A study of Mus musculus with 12 samples.

Results

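Bdh1, Oxct1, Acat1 and Slc16a1, 4 of the 23337 genes counted, encode the enzymes and the transporter with which a cell takes up and burns ketone bodies. They were chosen by symbol, with their measured levels in the 4 groups of these samples in view. No threshold or contrast was recorded for the choice, so every contrast among the groups counts as used, and the values of these 4 genes are given as a description without a test.

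Ketone bodies are small acids that the liver makes from fatty acids during fasting and suckling, and that heart, muscle and brain burn. Monocarboxylate transporters carry them through the plasma membrane. In the mitochondrion 3-hydroxybutyrate is oxidised to acetoacetate, acetoacetate receives coenzyme A from succinyl-CoA, and thiolysis then yields acetyl-CoA for the tricarboxylic acid (TCA) cycle. The heart takes up ketone bodies in proportion to their level in blood, and the suckling period is a time of high blood ketones.

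RNA was sequenced from 12 samples of sorted mouse cardiomyocytes (CMs), 3 in each of 4 groups. KO animals were Srf-flox/flox and control (CTRL) animals were Srf-flox/+, where Srf encodes serum response factor, a transcription factor of muscle genes. Animals of every group received AAV9-cTNT-Cre, a virus that expresses Cre recombinase from the cardiac troponin T promoter, so CTRL CMs also lost 1 copy of Srf. Every animal also carried a Cre-activated fluorescent reporter (Cas9GFP, tdTomato or mTmG, not given per sample). The virus was given at postnatal day 1 (P1) with collection at P14, or at P60 with collection at P90, at a low dose that reaches a minority of CMs. CMs were freed with collagenase and sorted by fluorescence, and the study describes the sort of these large cells as imperfect. Replicates were separate hearts by the study's legends, and sex was not given. By the study's methods, virus was injected under the skin of P1 pups and into the abdomen of adults. The P14 and P90 groups thus differ in age, in the age at and route of injection and in the time from injection to collection. They also differ in the table that holds them, and these cannot be told apart.

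Libraries held 9740389 to 23103460 counted reads, so that a floor of 3 reads corresponded to 0.140 to 0.317 CPM (reads scaled to a common library total). Levels below are CPM scaled with TMM factors (which align the bulk of genes between libraries), as mean ± SD with n = 3. Srf itself was at 57.0 ± 7.36 CPM in P14 CTRL and 23.2 ± 11.9 CPM in P14 KO, and at 69.9 ± 11.6 and 30.1 ± 2.78 CPM in P90 CTRL and P90 KO. The groups did not overlap at either age, but the edgeR quasi-likelihood test called Srf lower at P90 (log2 fold change -1.23 ± 0.13 SE, adjusted p = 0.00347) and not at P14 (-1.30 ± 0.36, adjusted p = 0.0628), where KO replicate 3 had 9.68 CPM. Cardiomyocyte marker RNA (6 genes) summed to 58604 to 62355 CPM in P14 KO and to 78967 to 89398 CPM in P14 CTRL. At P90 it summed to 71921 to 75339 CPM in KO and to 76127 to 89739 CPM in CTRL, also without overlap. Most of the P14 gap was Myh6, the adult myosin heavy chain (35523 against 55867 CPM at P14), the 1 cardiomyocyte marker called lower. At P14, 5 of the 6 had a negative log2 fold change in KO, with a median of -0.34 over the 6. Tnni3 (-0.53) was lower without overlap, and Actn2 was the 1 marker that was higher (6510 against 5388 CPM). At P90 no cardiomyocyte marker was called. Myh6 (-0.44) and Ryr2 (-0.68) were lower in P90 KO without overlap. Tnnt2 (0.30), Tnni3 (0.34) and Actn2 (0.16) were higher without overlap, and Myl2 (0.23) overlapped. Mural cell markers (4 genes) summed to 182 to 192 CPM in P14 KO against 73.0 to 151 CPM in P14 CTRL. That gap was Cspg4 (122 against 48.3 CPM), the 1 mural marker called, while Pdgfrb (-0.34), Rgs5 (-0.36) and Myh11 (0.22) overlapped and the median log2 fold change of the 4 was -0.06. Endothelial markers (5 genes) stood at 130 to 306 CPM and fibroblast markers (5 genes) at 27.9 to 136 CPM in all 12 libraries. Leukocyte markers (5 genes) stood at 4.59 to 12.4 CPM and red blood cell markers (4 genes) at 0.0520 to 2.88 CPM, with Hba-a1 and Hba-a2 at 0. In P14 KO the 3 leukocyte markers tested had a median log2 fold change of 0.56, and none was called. Csf1r (0.67) and Cd68 (0.56) were higher without overlap, and Lyz2 (0.20) overlapped. From P14 to P90, the median log2 fold change of endothelial markers was -0.90 in CTRL and -0.68 in KO. It was -1.41 and -1.30 for fibroblast, -0.91 and -0.67 for mural and 0.01 and -0.03 for leukocyte markers. In P90 KO against CTRL the endothelial median was 0.31, with Cldn5 (0.83) higher without overlap and the other endothelial markers overlapping. The part of other cells in the age differences and in the P90 KO differences was not tested.

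Bdh1 encodes 3-hydroxybutyrate dehydrogenase, which interconverts the 2 main ketone bodies at the inner mitochondrial membrane. The gene lies at chr16:31422297-31458901 on the plus strand of mm10 and its counted exons add up to 3333 bp. RefSeq promoter sequence (build GRCm38.p6, which shares the coordinates of mm10) was found for 3 of the 4 genes, and Bdh1 has 2 starts there. The 250 bases before each are shown, because Bdh1 spanned the widest range of levels. Counts per gene do not tell which start was used.
Bdh1, chr16:31422047-31422296, plus strand: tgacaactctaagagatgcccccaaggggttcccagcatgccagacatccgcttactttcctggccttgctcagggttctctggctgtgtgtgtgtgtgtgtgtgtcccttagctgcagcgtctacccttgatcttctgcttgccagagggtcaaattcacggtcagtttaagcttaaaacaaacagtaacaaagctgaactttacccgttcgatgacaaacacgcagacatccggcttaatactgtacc
Bdh1, chr16:31428503-31428752, plus strand: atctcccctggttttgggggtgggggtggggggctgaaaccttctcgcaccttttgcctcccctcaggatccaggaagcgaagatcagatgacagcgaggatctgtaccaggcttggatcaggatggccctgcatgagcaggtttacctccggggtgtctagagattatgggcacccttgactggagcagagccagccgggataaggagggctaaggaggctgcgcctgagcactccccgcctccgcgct
The upstream stretch had 49.6% G and C and 7 CpG dinucleotides, the downstream stretch 60.8% and 9, and the median over 32851 RefSeq windows was 52.4%.

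Bdh1 RNA was at the edge of detection at P14 and abundant at P90. P14 CTRL libraries held 4, 8 and 6 reads of Bdh1 (0.189, 0.399 and 0.352 CPM) and each P14 KO library held 6 (0.319, 0.290 and 0.301 CPM). P90 CTRL libraries held 3601, 1182 and 2872 reads, or 187, 125 and 225 CPM. P90 KO libraries held 1665, 1884 and 1146 reads, or 106, 87.7 and 90.3 CPM. Every P90 library thus lay far above every P14 library, and the P90 KO libraries lay below all P90 CTRL libraries.

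From P14 to P90 the CTRL mean went from 0.313 ± 0.110 to 179 ± 50.7 CPM, a ratio of 572 and a log2 fold change of 9.16 ± 0.33 (SE). In KO CMs it went from 0.303 ± 0.0146 to 94.6 ± 9.74 CPM, a ratio of 312 and a log2 fold change of 8.25 ± 0.17. Among the 12294 and 12417 genes fitted for these age comparisons, Bdh1 had the highest log2 fold change in both. In bulk RNA, fewer cells with a transcript and less of it per cell cannot be told apart. At P90, Bdh1 in KO CMs was at 52.8% of CTRL (log2 fold change -0.94 ± 0.17). P90 CTRL replicate 2, the shallowest library, was the lowest of its group and replicate 3 the highest, and the difference was -1.13 without the former and -0.74 without the latter. At P14 the gene fell under the filter on low counts and was not fitted, and without that filter the difference was -0.04 ± 0.65, so a difference of the P90 size was not detectable at this depth.

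Bdh2, the cytosolic relative of Bdh1, did not exceed 8 reads (0.425 CPM) in any library. Per kilobase of exon, Bdh1 made up 99.0% to 100% of the sum of the pair at P90. At P14 it made up 20.9% to 58.4%, where both genes rested on a few reads.

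**Figure D1:**
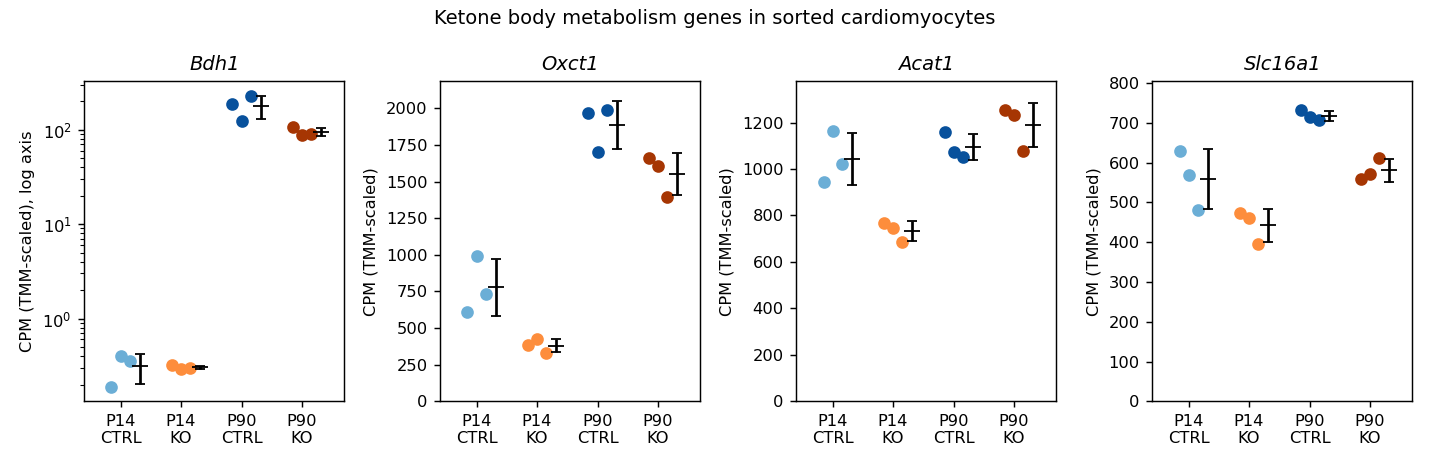
CPM (TMM-scaled) of Bdh1 (log axis) and of Oxct1, Acat1 and Slc16a1 (linear axes from 0) in the 12 samples. Dots are samples in the order of replicates 1 to 3, and bars are mean ± SD of 3. Bdh1 lies at 0.189 to 0.399 CPM in all 6 P14 samples and at 87.7 CPM or more in all 6 P90 samples, while the P14 KO dots are the lowest group for Oxct1 and Acat1.

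Oxct1 encodes succinyl-CoA:3-ketoacid CoA transferase (SCOT), the enzyme that commits acetoacetate to oxidation and that liver lacks. It lies at chr15:4026428-4155344 on the plus strand, with 3482 bp of counted exons. Its first exon shares bases with BC037032 on the opposite strand, which had 11 to 90 reads per library, and the library kit does not mark strand. The 250 bases before the Oxct1 start are shown because this is the gene of the set with the widest KO difference at P14.
Oxct1, chr15:4026178-4026427, plus strand: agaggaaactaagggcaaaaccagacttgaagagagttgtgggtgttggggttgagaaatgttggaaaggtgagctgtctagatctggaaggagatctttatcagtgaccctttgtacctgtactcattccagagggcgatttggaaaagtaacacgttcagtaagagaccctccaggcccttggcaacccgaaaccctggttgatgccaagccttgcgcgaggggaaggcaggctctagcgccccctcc
None of the 4 windows found for Bdh1, Oxct1 and Slc16a1 (250 bases before to 50 after the start) held a CArG box, the motif that serum response factor binds, or TNAAGGTCA, an element bound by oestrogen-related receptors, on either strand. These motifs occur in 1.63% and 1.28% of all 32851 windows, so no match says only that the letters are not in these windows.

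Oxct1 stood at 609, 991 and 735 CPM in P14 CTRL and at 385, 426 and 333 CPM in P14 KO. It stood at 1969, 1701 and 1987 CPM in P90 CTRL and at 1663, 1606 and 1391 CPM in P90 KO. The groups did not overlap at either age, and all P90 libraries exceeded all P14 libraries. P14 KO was at 49.0% of CTRL (381 ± 46.7 against 778 ± 195 CPM, log2 fold change -1.03 ± 0.19), and P90 KO at 82.4% (1554 ± 144 against 1886 ± 160 CPM, -0.29 ± 0.10). The KO difference at P14 minus that at P90 was -0.73 ± 0.22 on the log2 scale. The log2 fold change with age was 1.30 ± 0.17 in CTRL and 2.03 ± 0.12 in KO. P14 CTRL replicate 2 had the highest Oxct1 level of its group and also the group's lowest endothelial, fibroblast and mural marker sums, and without it the P14 difference was -0.81. The part of other cells in these levels was not tested.

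Oxct2a and Oxct2b, testis forms of the same enzyme and near copies of each other, had at most 1 read and 0 reads in any library, and a count of 0 allows up to 0.317 CPM in the shallowest. Oxct1 made up 99.97% to 100% of the 3 genes' summed level per kilobase.

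Acat1 encodes mitochondrial acetoacetyl-CoA thiolase, which splits acetoacetyl-CoA and also acts in isoleucine breakdown. It lies at chr9:53580522-53610350 on the minus strand, with 3373 bp of counted exons. Levels were 943, 1165 and 1022 CPM in P14 CTRL and 770, 746 and 685 CPM in P14 KO. They were 1159, 1075 and 1052 CPM in P90 CTRL and 1253, 1233 and 1079 CPM in P90 KO. P14 KO lay below the other groups, which overlapped one another.

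Acat1 in P14 KO was at 70.3% of CTRL (734 ± 43.8 against 1043 ± 112 CPM, log2 fold change -0.51 ± 0.12). At P90 the KO mean was 1188 ± 95.6 and the CTRL mean 1095 ± 56.0 CPM (0.10 ± 0.09). These P90 groups overlapped with TMM factors and did not with scaling to total counts, where KO was the higher. The P14 difference minus the P90 difference was -0.60 ± 0.15. With age, Acat1 differed by 0.09 ± 0.11 in CTRL, where scaling to total counts turned the sign (-0.02), and by 0.70 ± 0.10 in KO. Acat2, the cytosolic thiolase, whose reads may be shared with its near copy Acat3, was low, so that Acat1 made up 98.1% to 99.4% of the pair per kilobase.

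Slc16a1 encodes monocarboxylate transporter MCT1, the proton-coupled carrier of lactate, pyruvate and ketone bodies. It lies at chr3:104638668-104658462 on the plus strand, with 4426 bp of counted exons. Levels were 630, 569 and 480 CPM in P14 CTRL and 473, 460 and 395 CPM in P14 KO. They were 732, 714 and 706 CPM in P90 CTRL and 558, 571 and 612 CPM in P90 KO. The KO libraries lay below CTRL at both ages, at P14 by a margin of a few CPM that vanished with scaling to total counts.

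Slc16a1 in P14 KO was at 79.1% of CTRL (443 ± 41.7 against 560 ± 75.2 CPM, log2 fold change -0.34 ± 0.13) and in P90 KO at 80.9% (580 ± 28.2 against 718 ± 13.1 CPM, -0.32 ± 0.09). The difference between these 2 values was -0.01 ± 0.16 with TMM factors and 0.16 with total counts. With age, Slc16a1 was higher by 0.38 ± 0.12 in CTRL and 0.39 ± 0.10 in KO. Per kilobase, it made up 95.8% to 97.5% of the summed level of the MCT1 to MCT4 genes (Slc16a1, Slc16a7, Slc16a8 and Slc16a3) in all 12 libraries.

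In P14 KO, 3 of the 3 genes fitted did not overlap with CTRL and were lower, where 16.9% of the 12546 genes tested did so. At P90, 3 of 4 did not overlap and were lower, against 10% of all genes. Over age, 3 of 4 in CTRL and 4 of 4 in KO did not overlap and were higher, against 21.2% and 31.1% of all genes. The choice of these genes used the same contrasts, so nothing is read from these counts. With total-count scaling the median of all genes moved to 0.216 at P14 and to -0.323 for P90 KO against P14 KO on the log2 scale, from 0.00 and -0.03 with TMM factors.

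**Figure D2:**
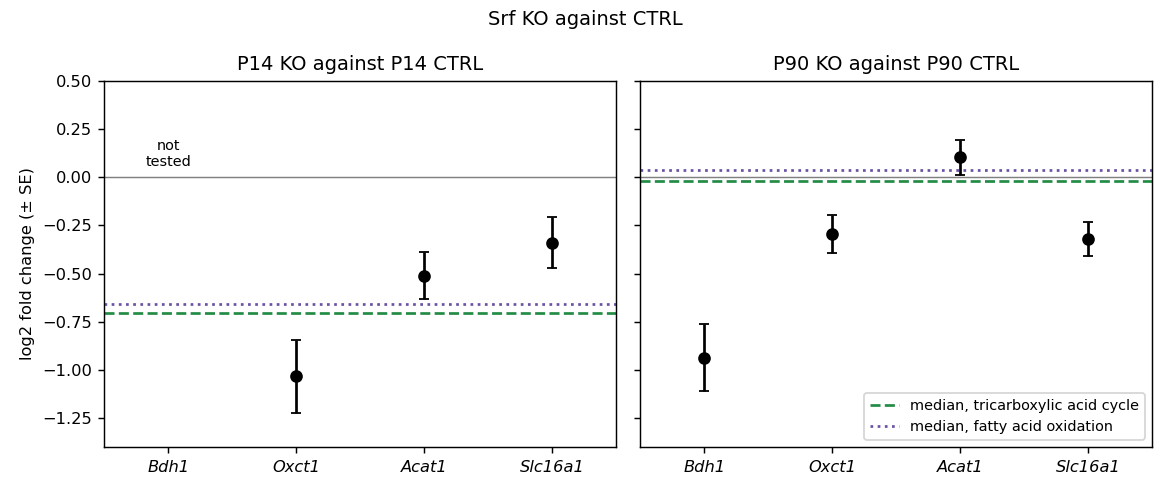
Log2 fold change (± SE) of Bdh1, Oxct1, Acat1 and Slc16a1, KO against CTRL, at P14 (left) and P90 (right), with the median of 17 TCA cycle genes (dashed) and 18 fatty acid oxidation genes (dotted). At P14 Oxct1 lies below both medians (-0.70 and -0.66) and Acat1 and Slc16a1 above them, and at P90 the medians lie near 0 while Bdh1 is at -0.94.

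Fatty acid oxidation, which like ketone use yields acetyl-CoA, and the TCA cycle, which burns it, give a scale for these differences. At P14, 15 of 17 TCA cycle genes were down-regulated in KO (median log2 fold change -0.70, range -1.11 to -0.32), as were 15 of 18 fatty acid oxidation genes (median -0.66), where 4.6% of all genes tested were called lower and the median of all was 0.00. Oxct1 (-1.03) was inside the TCA range, as were Acat1 (-0.51) and Slc16a1 (-0.34). The fatty acid oxidation genes ran from -0.84 to -0.09, so Oxct1 was below all 18 and the other 2 were inside their range. At P90 none of the 17 and none of the 18 was called, with medians of -0.02 and 0.04, where 0.39% of all genes were called. Bdh1 (-0.94), Slc16a1 (-0.32) and Oxct1 (-0.29) were below the lowest TCA gene at -0.20. From P14 to P90 in CTRL, 5 TCA genes and 4 fatty acid oxidation genes were up-regulated and 1 fatty acid oxidation gene was down-regulated, with medians of 0.04 and 0.08, where 14.5% of all genes were called higher and 29.3% in either direction. In KO all 17 TCA genes and 15 fatty acid oxidation genes were up-regulated and 1 fatty acid oxidation gene was down-regulated, with medians of 0.71 and 0.74, where 27.7% of all genes were called higher and 56.8% in either direction. The KO and the age comparisons share samples and are not independent.

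The order of the 4 genes by level per length changed with age. In P14 CTRL it was Acat1 (309 ± 33.3 CPM per kilobase), Oxct1 (223 ± 55.9), Slc16a1 (126 ± 17.0) and Bdh1 (0.0940 ± 0.0331), with the libraries of Acat1 and Oxct1 overlapping. In P90 CTRL it was Oxct1 (542 ± 46.1), Acat1 (325 ± 16.6), Slc16a1 (162 ± 2.96) and Bdh1 (53.8 ± 15.2), and each neighbour was apart by more than the SDs. In P14 KO Acat1 (217 ± 13.0) led, and Oxct1 (110 ± 13.4) and Slc16a1 (100 ± 9.41) overlapped across libraries. Within each P14 KO library, Oxct1 was 1.04 to 1.18 times Slc16a1 per kilobase. P90 KO had the order of P90 CTRL (446 ± 41.2, 352 ± 28.4, 131 ± 6.38 and 28.4 ± 2.92). Within each library, Oxct1 was 0.625 to 0.824 times Acat1 per kilobase in P14 CTRL, 0.471 to 0.553 times in P14 KO, 1.53 to 1.83 times in P90 CTRL and 1.25 to 1.29 times in P90 KO. These ranges did not overlap, and the ratio does not depend on the scaling between libraries.

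**Figure D3:**
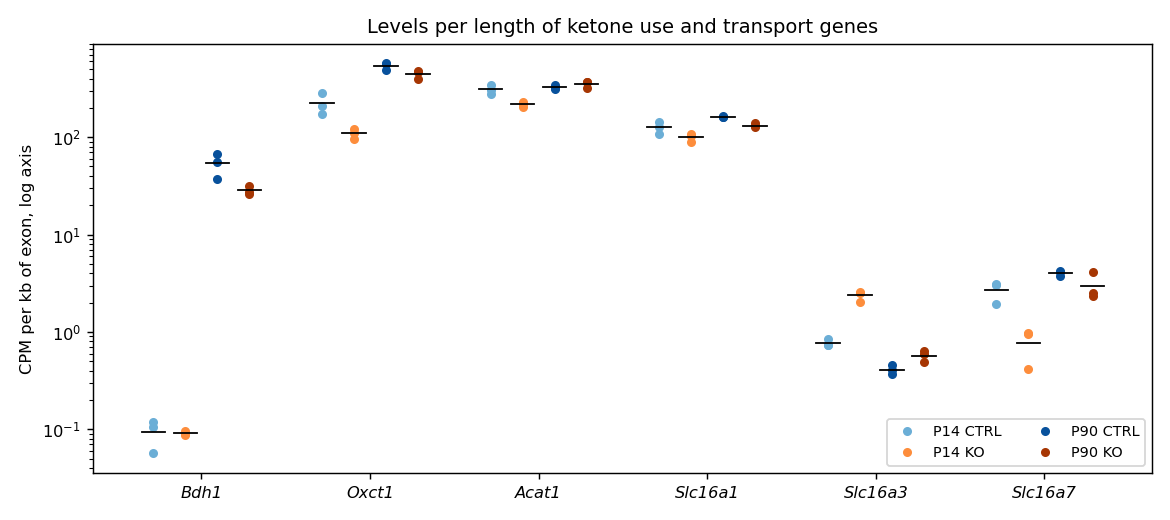
Level per length (CPM per kb of exon, log axis) of ketone use genes (Bdh1, Oxct1, Acat1) and transporters (Slc16a1, Slc16a3, Slc16a7), with 1 dot per sample and a line at each group mean. Oxct1 lies below Acat1 in CTRL at P14 (223 against 309) and above it at P90 (542 against 325), and Slc16a1 lies far above Slc16a3 and Slc16a7 in all groups.

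The other 23 ketone pathway genes reported were all in the tables, and 13 passed the filter in every fit. These tests were adjusted over all genes. The remaining 10 were Hmgcll1, Bdh2, Oxct2a, Oxct2b, the sodium-coupled carriers Slc5a8 and Slc5a12, the transporter partner Emb, the receptors Hcar2 and Ffar3 and the hormone Fgf21. None of these 10 exceeded 37 reads in a library, and Emb held that maximum.

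Among transporters at P14, the test called Slc16a3 higher and Slc16a7 lower in KO. Slc16a3 encodes MCT4, the lactate exporter of glycolytic cells, and stood at 1.89, 2.19 and 1.88 CPM in CTRL and 5.26, 6.43 and 6.67 CPM in KO (log2 fold change 1.62 ± 0.23, adjusted p = 0.0108). Slc16a7 encodes MCT2, a carrier of high affinity, and stood at 7.42, 4.69 and 7.51 CPM in CTRL and 2.29, 2.37 and 1.00 CPM in KO (-1.79 ± 0.36, adjusted p = 0.0238). Both were scarce, while Slc16a1 was at 395 CPM or more in each library. Bsg encodes basigin, the chaperone that brings MCT1 to the membrane, and was down-regulated in P14 KO (1440, 1525 and 1159 CPM in CTRL against 922, 893 and 680 CPM in KO, -0.73 ± 0.16, adjusted p = 0.0289). Per kilobase, Bsg was 5.78 to 6.77 times Slc16a1 in P14 CTRL and 4.35 to 4.92 times in P14 KO, and 6.24 to 7.27 and 7.50 to 9.85 times in P90 CTRL and P90 KO. Sirt3, the mitochondrial deacetylase that acts on ketone enzymes, was also down-regulated (69.9 ± 5.38 against 44.4 ± 1.20 CPM, -0.66 ± 0.11, adjusted p = 0.0145).

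These 4 of 13 (1 higher, 3 lower) compare with 8.59% of all genes called at P14, and the median of the 13 was -0.43. The count was 1, 0 and 1 without P14 KO replicate 1, 2 or 3 in turn. Ldhb, the lactate dehydrogenase subunit that prevails in heart, was at -0.45 ± 0.12 (adjusted p = 0.0526), and was called lower with DESeq2 and in a fit of all 12 samples. The cardiomyocyte marker sum was lower, mainly through Myh6, and the mural marker sum higher, through Cspg4, in all P14 KO libraries than in P14 CTRL, and the part of other cells in the P14 values was not tested.

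At P90 edgeR called 0 of the 13 in KO against CTRL, where 0.39% of all genes were called. DESeq2 also called 0. At an unadjusted p under 0.05, for which no share of all genes is given, there were 4. These were Acat2 (0.46 ± 0.18), Ppara, the nuclear receptor of fatty acid and ketone genes (-0.41 ± 0.15), its coactivator Ppargc1a (-0.24 ± 0.10) and Ldha, the lactate dehydrogenase subunit that prevails in skeletal muscle (0.27 ± 0.10), with adjusted p of 0.251, 0.236, 0.262 and 0.238. The median of the 13 was -0.08. Without the filter on low counts 1 gene, Ppara, was called lower.

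**Figure D4:**
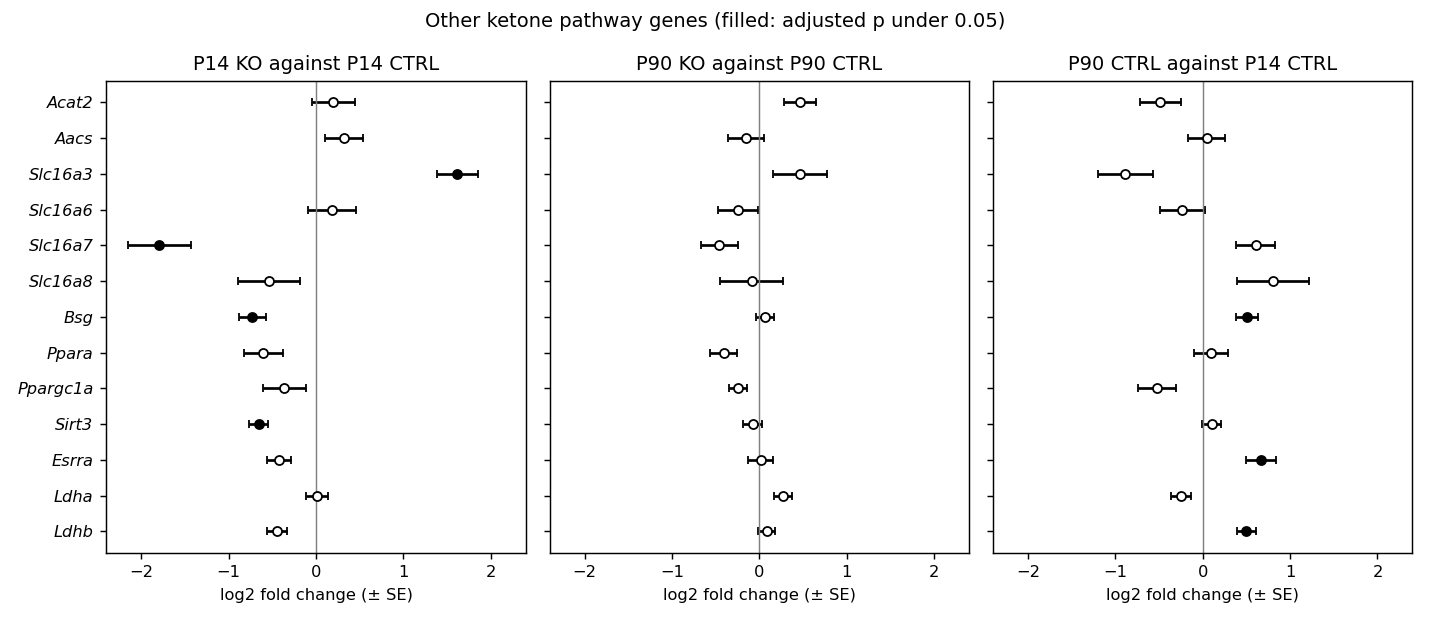
Log2 fold change (± SE) of the 13 other ketone pathway genes tested, for KO against CTRL at P14 and at P90 and for P90 CTRL against P14 CTRL, on 1 common axis. Filled dots passed an adjusted p of 0.05, which 4, 0 and 3 genes did, where 8.59%, 0.39% and 29.3% of all genes did. Slc16a3 (1.62) and Slc16a7 (-1.79) at P14 are the farthest from 0.

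From P14 to P90 in CTRL, 3 of 13 were called, where 29.3% of all genes were. These were Bsg (0.51 ± 0.13, adjusted p = 0.0196), Esrra, the oestrogen-related receptor that drives mitochondrial genes (0.66 ± 0.17, adjusted p = 0.0200), and Ldhb (0.50 ± 0.11, adjusted p = 0.00944), all higher. The count was 1 without P14 CTRL replicate 3 and also 1 without P90 CTRL replicate 1. With scaling to total counts, which put the median of all genes at -0.125, it was 6. In KO, 9 of 13 were called from P14 to P90, where 56.8% of all genes were. The 6 that were higher were Slc16a7 (1.94 ± 0.34), Slc16a8 (1.27 ± 0.31), Bsg (1.29 ± 0.13), Sirt3 (0.68 ± 0.10), Esrra (1.10 ± 0.10) and Ldhb (1.02 ± 0.11). The 3 that were lower were Slc16a3 (-2.04 ± 0.22), Slc16a6 (-0.67 ± 0.25), a carrier linked to ketone export from liver, and Ppargc1a (-0.42 ± 0.12). Adjusted p of the 9 ran up to 0.0426, for Slc16a6. Slc16a6 and Ppargc1a were not called in a fit of all 12 samples or with a length correction, and Slc16a6 lost its call on leaving out any of 4 of the 6 samples.

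Whether the KO difference itself differed between the P14 and the P90 groups was tested for these 13. Here edgeR called 0, where 1.78% of all genes were called. At an unadjusted p under 0.05 there were 5, and DESeq2 called 4 (Bsg, Ldhb, Sirt3 and Slc16a7). The share of 1.78% is for edgeR calls only. No share of all genes is given for the unadjusted or the DESeq2 count, so neither is read as an excess. Bsg came closest in edgeR (-0.78 ± 0.20, adjusted p = 0.0586). The count was 1 without P14 CTRL replicate 1 and also 1 without P14 CTRL replicate 3.

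The genes whose levels followed each of the 4 most closely over the 12 samples were found among 9466 genes with a mean of at least 5 CPM, by the root mean square (RMS) difference of centred log2 CPM. For Acat1 these were Psmg1 (0.06), Idh3g (0.06), a TCA cycle subunit, and Ndufa9 (0.07), a respiratory complex I subunit. For Slc16a1 they were Gtpbp8 (0.09), Fbxo45 (0.10) and Pdxk (0.10). For Oxct1 they were Ethe1 (0.13), Nampt (0.15) and Got1 (0.17). No gene came as close to Bdh1 on this measure, and the nearest were Cpxm2 (1.64), Scn4b (1.74) and Kcnv2 (1.89). The RMS difference grows with the size of a gene's changes, and Bdh1 had the highest log2 fold change with age. Its distances are therefore not comparable with those of the other genes. Among the 4 genes themselves, Acat1 and Slc16a1 were closest (0.21), and Bdh1 was 3.33 to 3.96 from the other 3.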

How the data were processed

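Per the submitters' processing notes, reads were processed with CASAVA 1.8 and aligned to mm10 with STAR 2.5.3a, and featureCounts of Subread 1.5.2 counted reads per gene. The authors deposited raw counts with gene coordinates and exon lengths, in 1 table per age, with 23337 identical gene rows. The counting settings for strand and shared reads were not given in the sources used here. Groups came from the sample labels.

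The members and all gene lists were chosen with earlier results of these data known. Counts were tested in R 4.3.3 with edgeR 4.0.16 (TMM factors, filterByExpr with a minimum count of 10, glmQLFit, glmQLFTest, Benjamini-Hochberg over all genes tested, adjusted p under 0.05). Each comparison used its 6 samples, and the interaction all 12. The procedure was tested on simulated data. DESeq2 1.42.0, RLE factors, no filter, a replicate block, a joint fit, a length correction, total-count scaling and leaving out each sample were alternatives. Some genes of the pathway list are not reported here. Named were Srf, the 4 genes, the rest of that list and, per gene, the 3 most similar genes. Level means a TMM-scaled CPM over all 12 libraries. Oxct1, Bdh1 and Slc16a1 promoters came from RefSeq (GRCm38.p6). Depth was 9740389 to 23103460 reads. The floor of 3 reads covers counting error only. Amplified reads without molecular identifiers are not independent molecules.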

Additional observations from a re-analysis of the deposited data

How the results depend on the processing

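Fold changes of the 4 ketone genes kept their direction under every alternative but total-count scaling, except for the difference between the KO effects on Slc16a1, which ran from -0.09 to 0.08 on leaving out 1 sample. Total-count scaling was chosen after seeing the data. It gave Acat1 -0.29 and Slc16a1 -0.13 at P14 and Bdh1 7.96, Oxct1 1.73, Acat1 0.40 and Slc16a1 0.10 for P90 KO against P14 KO. For the P14 minus P90 difference it gave Acat1 -0.42 and turned Slc16a1 to 0.16. These shifts follow the move of the median gene given in the report. It also turned Acat1 with age in CTRL to -0.02. The length correction gave Slc16a1 -0.25 at P90, and the cause was not tested. On leaving out 1 sample, Slc16a1 at P90 ran from -0.37 to -0.29, and the P14 minus P90 difference of Oxct1 from -0.88 to -0.51, the latter without P14 CTRL replicate 2. The number of pathway genes called ran from 0 to 5 at P14, from 1 to 3 with age in CTRL and from 0 to 1 for the difference between KO effects. It was 1 without the filter at P90, 6 with total-count scaling in CTRL over age, and 4 with DESeq2 and 1 without the filter for the difference between KO effects. At P14, the call was lost on leaving out 1 of the 6 samples in 5 cases for Bsg, 4 for Slc16a7, 3 for Sirt3 and 1 for Slc16a3, and without P14 CTRL replicate 1 Ldhb was called. With age in CTRL it was lost in 4 of 6 cases for Esrra and 3 for Bsg, and with age in KO in 4 for Slc16a6 and 1 for Ppargc1a, whose value was -0.12 with the length correction. Bdh1 at P14 was not fitted, so it has no alternatives there, and its 4 to 8 reads per library set the precision of its age ratios.

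The labels number replicates alike in all groups. Deviations of same-numbered P14 samples correlated at 0.0441, 0.146 and 0.352 and those of P90 samples at 0.178, 0.00341 and 0.0531, so not every pair exceeded 0.1. At P14, not every sample correlated best with its own number. With the replicate block, pathway calls numbered 6 at P14 (Ldhb and Ppara were added), 1 at P90 (Ppara), 3 and 9 over age in CTRL and KO, and 2 for the difference between KO effects.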

Other observations

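Lactate shares its carriers with ketone bodies. Of its dehydrogenase subunits, Ldha made up 42.6% ± 1.15 of the summed Ldha and Ldhb level per kilobase in P14 CTRL and 50.5% ± 0.605 in P14 KO (SD, n = 3), with no overlap. With TMM factors, Ldha itself was alike at P14 in KO and CTRL (1957 against 1943 CPM, log2 fold change 0.01 ± 0.13 SE, with overlap). Ldhb was then lower in KO without overlap (1281 against 1745 CPM). Scaling to total counts moved the median of all genes at P14 to 0.216. How far each subunit accounts for the share therefore depends on the scaling, while the share itself does not. The log2 ratio of Ldha to Ldhb differed by 0.46, with an exact two-sided permutation p = 0.1, the smallest that 3 against 3 samples allow. At P90 the share was 30.8% ± 1.82 in CTRL and 33.6% ± 1.08 in KO, with overlap, and the log2 ratio differed by 0.19 (exact permutation p = 0.2). RefSeq windows were found for 21 of the 27 ketone genes (the chosen genes and the pathway list), 24 windows in all. Of these, only the first of 2 windows of Ldha held a CArG box, shown in capitals. The motif occurs in 1.63% of all 32851 windows, so a single match among 24 searched is not read as enrichment.
Ldha, chr7:46845801-46845830, plus strand: cgcggagcttCCATTTAAGGccccgcccgc
The match starts 8 bases into the transcript. The study mapped serum response factor binding across the genome in P14 and adult hearts. Those data were not used here, so binding at this match was not examined.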
